A study of Sus scrofa with 9 samples.

Results

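The 65 genes described here carry the symbols of mitochondrial ribosomal proteins and were measured among 23507 genes in pig (Sus scrofa) oocytes. They are all rows of the count table whose symbol begins with MRPL or MRPS and a digit. By name, 40 belong to the large subunit (MRPL) and 25 to the small subunit (MRPS). MRPS30 and MRPS18A carry small-subunit names, although their proteins sit in the large subunit of the mammalian particle.

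Mitochondria make a handful of proteins themselves, all of them core parts of the respiratory chain and ATP synthase. These are read from mitochondrial mRNAs by a dedicated ribosome, whose RNAs come from mitochondrial DNA and whose proteins are all encoded in the nucleus, made in the cytosol and imported. The mammalian mitoribosome is rich in protein. Some of its proteins descend from bacterial ribosomal proteins and others have no bacterial counterpart. The mature oocyte carries a very large stock of mitochondria, does almost no transcription and works from stored mRNA.

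All groups were wild-type oocytes collected at metaphase II (MII), when the mature egg waits for fertilisation, after in vitro maturation that began with compact cumulus cells around them. Control oocytes matured at 38.5 °C, with MII reached at 44 to 48 h. Heat stress (HS) oocytes spent 24 h at 41.5 °C from the germinal vesicle stage and then returned to 38.5 °C. The third group (HS_Lasp) had the same heat with L-Asp in the medium. The concentration in the sequenced samples is not named, and those listed are 0.5, 1.0 or 1.5 mmol/L. The 3 comparisons ask how heat, and L-Asp given with heat, were associated with the stored RNA. Each group had 3 libraries, and 25 oocytes per group are stated without their division among libraries or the animals they came from.

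Library totals were 54965064 to 58361475 counts in control, 46198885 to 53327419 in HS and 41693395 to 49008681 in HS_Lasp. Squared differences between paired libraries of a group were set against those of independent counts. The ratio is that of the medians over genes with at least 40 counts in the pair. For the 62 to 64 mitoribosomal genes with such counts it was 6.22 to 7.32 in control, 114 to 169 in HS and 78.1 to 137 in HS_Lasp. Over all 12799 to 13356 genes with such counts it was 5.19 to 5.22 in control, 109 to 119 in HS and 79.4 to 84.9 in HS_Lasp. Control libraries were thus far more alike than the heated ones, and their mean was counted as 1 sample in the main tests. Their spread is no measure of variation between cultures, so the tests give control the variation seen within the heated groups. Oocyte markers matched the label: 16 of 18 listed were in the table and none was at 0 in a group, with summed levels of 32000 to 32250 CPM (counts scaled for library size) in control, 16253 to 20534 in HS and 20186 to 23513 in HS_Lasp.

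The genes took a small and similar share of all RNA counts in each group. Their summed share was 0.404 to 0.408% in control, 0.403 to 0.519% in HS and 0.406 to 0.435% in HS_Lasp, and the groups overlapped. Levels of single genes, by contrast, differed widely. On the deposited FPKM scale, which divides counts by gene length and library total, the control means ran from 0.0348 to 249.9 with a median of 6.84. In control 28 genes stood at 10 FPKM or more and 10 below 1 FPKM, and the matching numbers were 30 and 7 in HS and 28 and 9 in HS_Lasp. On this scale, genes named for the same particle had very unequal amounts of mRNA.

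The head of the order held both large and small subunit genes. MRPL18, a conserved large subunit protein, had the highest control level at 249.9 FPKM, followed by MRPL15, another conserved protein of the large subunit core, at 241. MRPL33 followed at 168, MRPL43 at 156, MRPL16 at 117, MRPL11 at 115, MRPS14 at 102 and MRPS31 at 95.9 FPKM. MRPL18 stayed first in all groups, whereas MRPL43 went from rank 4 in control to rank 22 in HS and rank 8 in HS_Lasp. By counts, which also grow with length, MRPS14, MRPL18 and MRPL15 together held 43.9% of all counts of the 65 genes in control, 46.6% in HS and 43.9% in HS_Lasp.

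**Figure D1:**
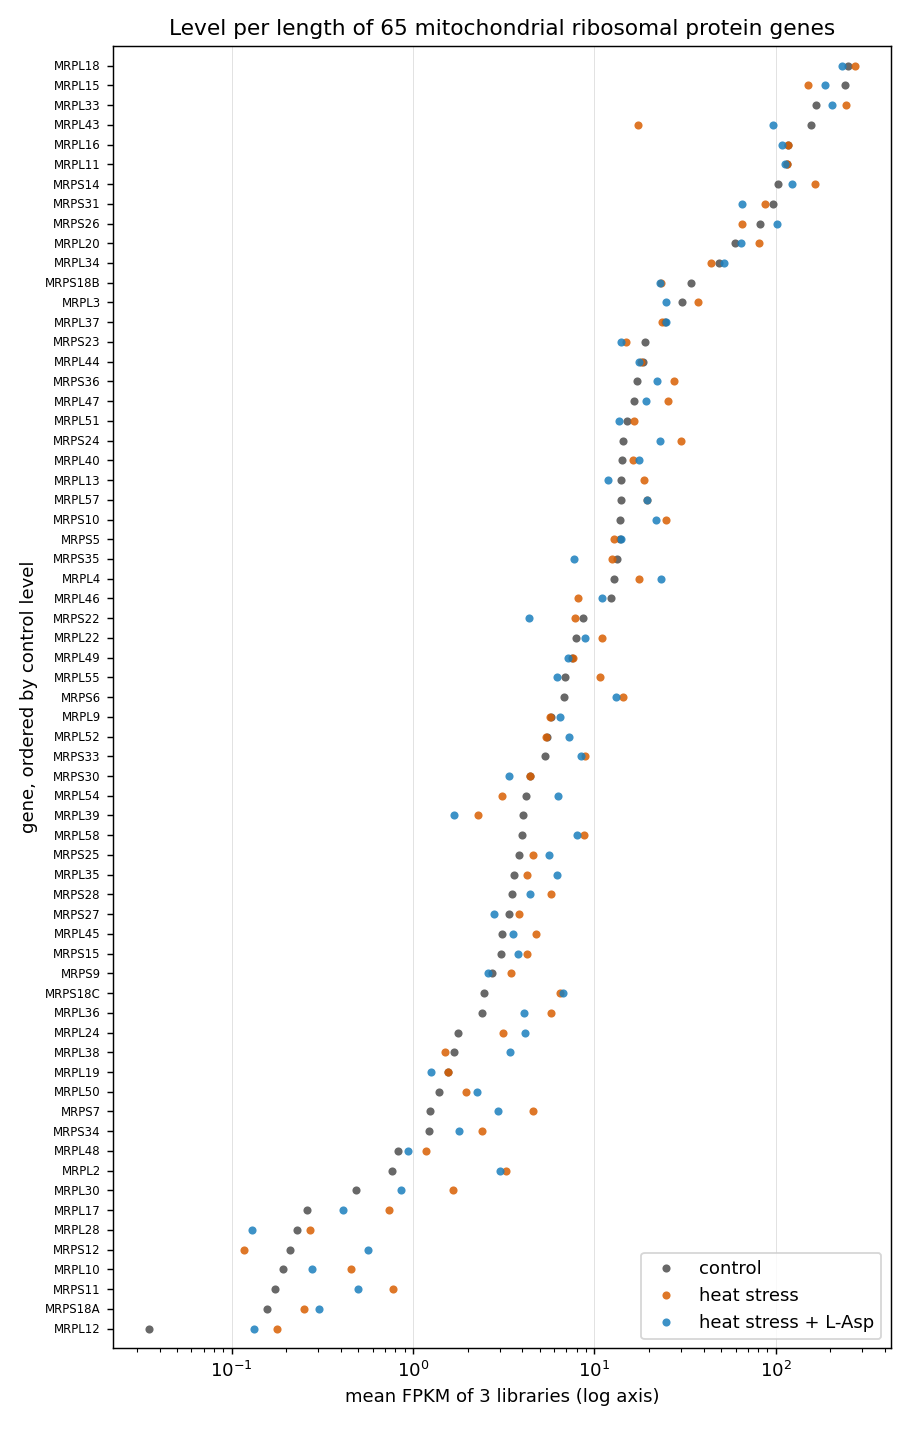
Mean FPKM of the 3 libraries of each group on a log axis, 1 row per gene, ordered by the control level. The rows span 0.0348 to 249.9 FPKM in control, and for MRPL43, in the fourth row, the HS point (17.5) lies far to the left of the control point (156).

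The foot of the order included genes for the factor-binding stalk and for the decoding centre. MRPL12 and MRPL10 form the flexible stalk that recruits translation factors, and MRPS12 lies at the decoding centre. MRPL12 had 0.0348 FPKM in control, 0.178 in HS and 0.133 in HS_Lasp. MRPS18A (0.156), MRPS11 (0.174), MRPL10 (0.192) and MRPS12 (0.209) also lay near the bottom in control. Each of MRPL12, MRPS12 and MRPS11 had no count in at least 1 library. If 1 fragment is taken as 4 counts, an assumption that the files do not state, 3 fragments are 12 counts, which equal 0.229 to 0.284 CPM, a limit for counting error only. MRPL12 lay at or below 0.409 CPM everywhere, so differences between groups were not detectable for it at this depth. MRPL11, whose protein forms the base of the same stalk, was at 158 to 168 CPM in control, 134 to 162 in HS and 119.8 to 187 in HS_Lasp, which overlap.

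After heat stress the genes lay on both sides of control. No gene of the 65 passed the test against control (edgeR quasi-likelihood test, adjusted p under 0.05), against 0.0% of the 15012 genes tested. DESeq2 also called 0 of the 65, against 1.13% of the 16142 genes to which it gave an adjusted p. At an unadjusted p under 0.05 edgeR gave 6 of 65 genes, 4 higher (all genes 1.96%) and 2 lower (1.9%), or 9.23% against 3.86% of all genes. All 3 HS libraries lay beyond all control libraries for 27 genes, or 41.5% against 32.7% of all genes tested. Of these, 18 were higher (all genes 13.6%) and 9 lower (19.0%). The fitted log2 fold change was above 0 for 39 of 65 genes, against 50.1% of all genes, with a median of 0.16 against 0.00 for all genes tested. In these bulk libraries fewer cells of a type and less RNA per cell cannot be told apart, nor can RNA amount and poly(A) tail length, since the cDNA was primed with oligo(dT).

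The libraries differed more than that small median. The median log2 ratio to the control mean over the 65 genes was 0.25, 0.20 and -0.04 in the HS libraries and -0.12, 0.31 and -0.14 in the HS_Lasp libraries. Of the 65 genes, 40, 37 and 31 lay above the control mean in HS and 28, 41 and 27 in HS_Lasp. Neither heated group thus had a median above the control mean in all its libraries. Over all genes tested the medians were -0.12, -0.08 and -0.07 in HS and -0.05, -0.09 and -0.09 in HS_Lasp. Each HS median of the 65 genes lay above that of all genes, as did that of HS_Lasp library 2. Of the 15012 genes, 6704, 6845 and 6905 lay above the control mean in HS and 6980, 6740 and 6823 in HS_Lasp. Of the 65 genes, 13, 19 and 14 in HS and 8, 20 and 12 in HS_Lasp were at least 2-fold from the control mean. As shares these were 12.3 to 30.8%, against 26.2 to 36.2% of all genes tested in the same libraries, where typical levels were lower (median 25.9 CPM for the 65 genes, 5.86 CPM for all). The cytosolic ribosomal protein genes, the counterpart of this family outside mitochondria, had medians of 0.80, 1.47 and 1.18 in HS and 0.72, 0.98 and 0.93 in HS_Lasp.

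**Figure D2:**
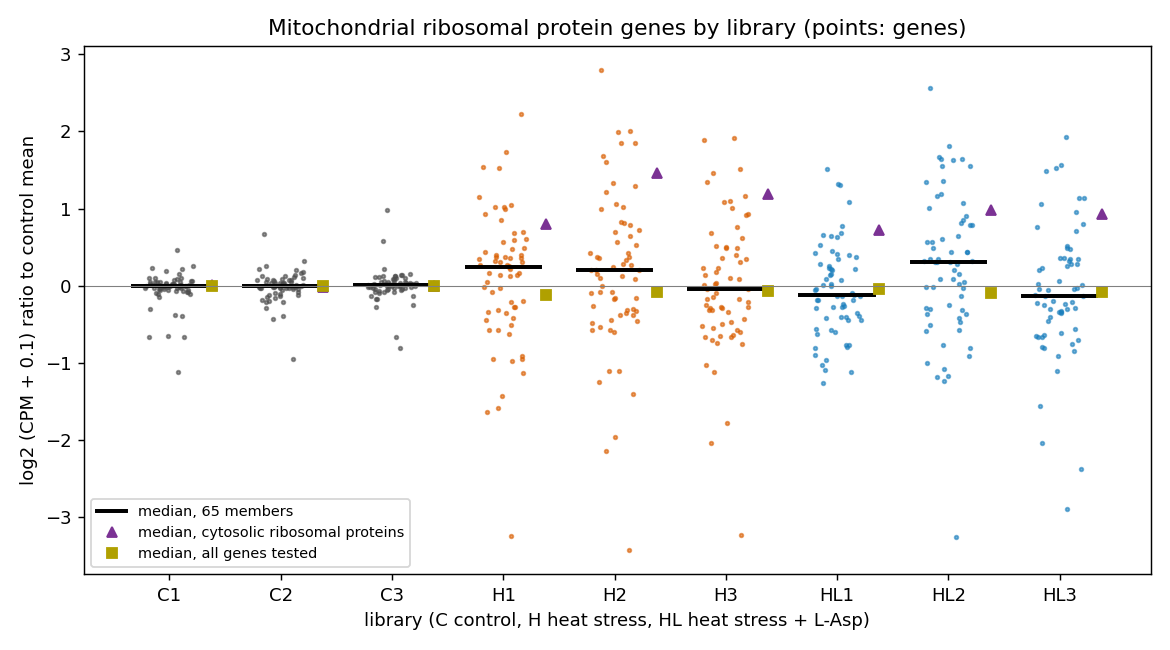
Log2 ratio of CPM + 0.1 to the control mean for each of the 65 genes (points) in each library, with the median of the 65 genes (bar), of 67 cytosolic ribosomal protein genes (triangle) and of all 15012 genes tested (square). The bars lie between -0.14 and 0.31 in the heated libraries, and the triangles between 0.72 and 1.47.

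MRPL43, a mitochondria-specific protein of the large subunit, showed the widest separation in the family between HS and control (chromosome 14, 112066338 to 112070232 in the table's coordinates). It measured 251, 248 and 245 CPM in the control libraries, 25.9, 22.9 and 26.3 in HS, and 187, 25.7 and 212 in HS_Lasp. All HS libraries were thus far below control and close to each other, whereas HS_Lasp libraries 1 and 3 were near control and library 2 was at the HS level. HS averaged 25.0 ± 1.87 CPM (SD, n = 3), 9.90-fold below control, a log2 fold change of -3.31 ± 0.75 (SE). It did not pass the all-gene test (edgeR adjusted p = 0.559, unadjusted p = 0.00168). The HS_Lasp mean was 141 ± 101 CPM (SD, n = 3), and the log2 fold change from HS was 2.5 ± 0.62 (edgeR adjusted p = 0.738, unadjusted p = 0.00289). Without HS_Lasp replicate 2 the adjusted p was 0.00415 for HS against control, at a log2 fold change of -3.32, and 0.00325 for HS_Lasp against HS, at 3.01. Over the other settings tried, the edgeR, DESeq2 and limma adjusted p for HS against control ran from 0.0126, with all 9 libraries as replicates, to 1.

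Part of the MRPL43 locus lies opposite other genes, and the preparation does not mark strand. TWNK, the mitochondrial DNA helicase, shares 308 bases with it on the other strand, and SEMA4G shares 1914. TWNK was at 26.5 to 33.1 CPM in control, 24.1 to 32.1 in HS and 27.1 to 38.5 in HS_Lasp, levels that overlap between groups. SEMA4G was at 0.364 CPM or less in every library. In all, 19 of the 65 genes overlap another gene, 17 on the opposite strand only, and reads in such stretches cannot be assigned to a strand. MRPL28 and MRPL10 overlap a neighbour on the same strand.

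Among the abundant genes MRPL15 was also lower in HS. It measured 536, 525 and 526 CPM in control, 343, 246 and 312 in HS and 359, 352 and 414 in HS_Lasp. No heated library reached the control level, and the HS_Lasp libraries all lay above the HS libraries. The log2 fold change of HS from control was -0.82 ± 0.27 (SE) at an unadjusted p of 0.0111 (edgeR adjusted p = 0.839), and that of HS_Lasp from HS was 0.32 ± 0.20 (edgeR adjusted p = 0.771).

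Further genes had log2 fold changes below 0 for HS against control. MRPS12 was too low to be read, at 0.243, 0.286 and 1.37 CPM in control and 0.284, 0.214 and 0.486 in HS. MRPL39, a mitochondria-specific protein related to threonyl-tRNA synthetase, had 42.7, 45.4 and 45.1 CPM in control, 29.8, 9.99 and 29.8 in HS and 18.5, 23.6 and 8.45 in HS_Lasp. MRPL46, another mitochondria-specific protein, had 15.7, 16.7 and 14.95 in control, 11.1, 7.29 and 9.90 in HS and 9.20, 19.5 and 9.97 in HS_Lasp. For MRPL39 both heated groups lay wholly below control, whereas for MRPL46 HS_Lasp overlapped control. MRPL54 had 9.42, 9.78 and 10.5 CPM in control, 5.06, 6.47 and 8.17 in HS and 8.68, 15.1 and 17.3 in HS_Lasp, with HS below both other groups. None passed the test (log2 fold change of HS from control -0.94, -0.74 and -0.59, edgeR adjusted p = 1 each).

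The genes on the higher side included the peptidyl-tRNA hydrolase of the ribosome. MRPL58, also called ICT1, frees stalled mitochondrial ribosomes. It measured 23.5, 21.4 and 23.5 CPM in control, 45.4, 40.6 and 48.6 in HS and 35.2, 45.8 and 44.4 in HS_Lasp. Every heated library was above every control library, while HS and HS_Lasp overlapped. The log2 fold change of HS from control was 0.98 ± 0.37 (SE) at an unadjusted p of 0.0219 (edgeR adjusted p = 1).

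MRPS24, the counterpart of a bacterial protein at the mRNA entry of the small subunit, had 46.5, 47.0 and 51.0 CPM in control, 87.4, 112 and 67.5 in HS and 64.3, 87.0 and 61.6 in HS_Lasp. Both heated groups stood wholly above control, at a log2 fold change of 0.89 for HS (edgeR adjusted p = 1). MRPL36, a small conserved large subunit protein, had 6.64, 8.33 and 6.97 CPM in control, 9.99, 18.1 and 18.8 in HS and 8.78, 12.8 and 12.5 in HS_Lasp. Both heated groups lay above control here too (1.09 for HS, edgeR adjusted p = 1). MRPS6 had 7.73, 4.90 and 7.39 CPM in control, 4.86, 13.7 and 19.1 in HS and 5.01, 20.98 and 9.33 in HS_Lasp, and its heated libraries spread across the control range.

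Low levels came with larger and less certain differences. MRPS7, a conserved protein of the small subunit head, had 2.35, 2.002 and 2.54 CPM in control, 5.23, 8.53 and 8.99 in HS and 5.82, 7.38 and 1.80 in HS_Lasp. MRPL2, a core protein of the large subunit named here after its values were seen, had 1.07, 1.58 and 1.37 CPM in control, 6.68, 3.53 and 5.25 in HS and 4.01, 4.99 and 5.42 in HS_Lasp. HS was wholly above control for both genes, and HS_Lasp for MRPL2 but not MRPS7. Their log2 fold changes of HS from control were 1.72 ± 0.92 and 1.94 ± 0.85 (SE), at edgeR unadjusted p of 0.0894 and 0.0425 (adjusted p = 1 each). MRPS7 shares 704 bases with MIF4GD and MRPL2 shares 968 with KLC4, both on the other strand. MIF4GD was at 65.7 to 70.5 CPM in control, 23.4 to 52.8 in HS and 49.1 to 74.8 in HS_Lasp, far above MRPS7 and lower in HS, where MRPS7 was higher. KLC4 was at 2.54 to 4.20 CPM in control and 3.48 to 4.33 in HS. What the overlapping genes add to the counts of MRPS7 and MRPL2 was not tested.

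The 3 MRPS18 genes encode related proteins that occupy different places in the particle, and their values differed. MRPS18C, the form at the site of its bacterial relative in the small subunit, had 16.9, 16.2 and 16.1 CPM in control, 47.3, 32.8 and 36.7 in HS and 35.0, 42.1 and 46.3 in HS_Lasp. MRPS18B, also in the small subunit, had 59.7, 63.6 and 63.4 CPM in control, 42.0, 23.5 and 51.1 in HS and 31.9, 36.5 and 47.0 in HS_Lasp. MRPS18A, in the large subunit, had 1.01, 1.54 and 1.50 CPM in control, 1.17, 2.47 and 2.16 in HS and 1.11, 4.18 and 1.97 in HS_Lasp. All heated libraries were thus above control for MRPS18C and below control for MRPS18B, and they overlapped control for MRPS18A. In control the MRPS18B level was 34.1 FPKM against 2.47 for MRPS18C, and in HS 23.2 against 6.49. The lengths implied by the deposited counts and FPKM were 1641 bases for MRPS18B and 5968 for MRPS18C. The gap in FPKM was thus wider than that in CPM. The log2 fold change of HS from control was 1.25 ± 0.40 (SE) for MRPS18C, -0.68 ± 0.43 for MRPS18B and 0.50 ± 1.25 for MRPS18A (edgeR adjusted p = 0.835, 1 and 1), and the difference between these genes was not tested. MRPS18C shares 7923 bases of its locus with ABRAXAS1 on the other strand, which was at 5.39, 7.09 and 5.45 CPM in control, 0.567, 3.82 and 10.99 in HS and 8.09, 0 and 0 in HS_Lasp.

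**Figure D3:**
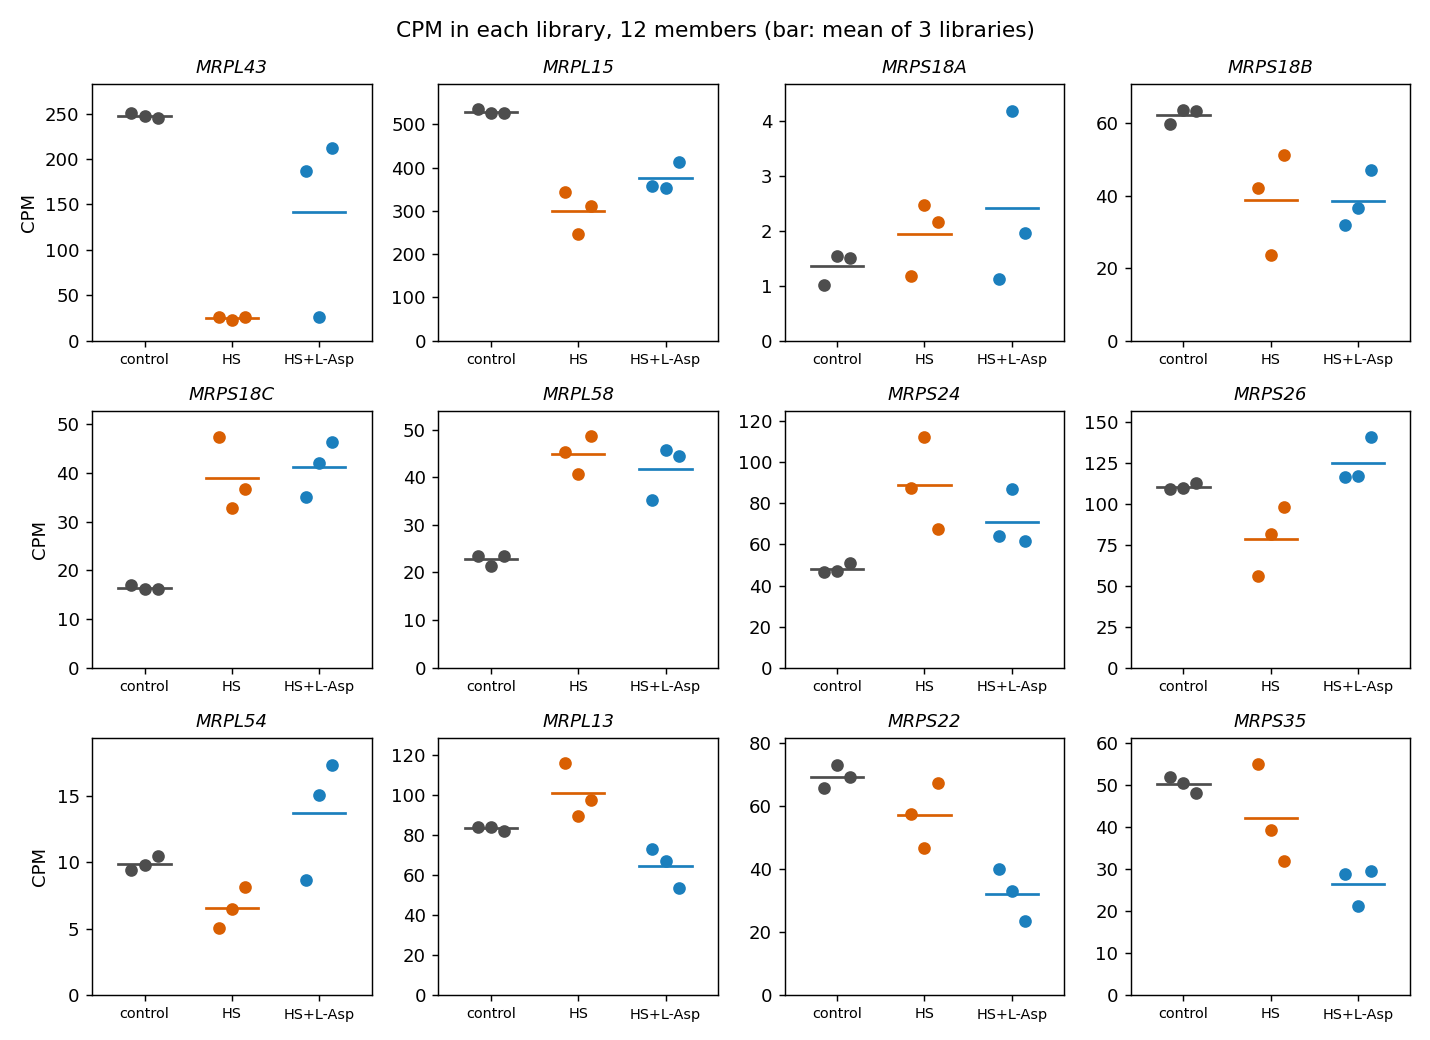
CPM in each library (points) and the mean of 3 libraries (bar) for 12 genes, each panel with its own axis from 0. MRPL43 lies at 22.9 to 26.3 CPM in all HS libraries and in 1 HS_Lasp library, and at 187 CPM or more in the other libraries; MRPS18B and MRPS18C differ in the side of control on which the heated libraries lie.

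With all 9 libraries taken as replicates, MRPL43, MRPL15, MRPS18C, MRPL58, MRPS24 and MRPL2 passed the edgeR test for HS against control (6 of 65, against 2.88% of all genes), with adjusted p of 0.00905 for MRPS18C to 0.0493 for MRPS24. In the same fit MRPS18C, MRPL58 and MRPS22 passed for HS_Lasp against control (3 of 65, against 1.79% of all genes), and 0 of 65 passed for HS_Lasp against HS (0.0133% of all genes). That fit takes the narrow spread of the control libraries as a spread between samples.

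Split by symbol, 23 of 40 MRPL genes and 16 of 25 MRPS genes had a log2 fold change above 0 for HS against control. The medians were 0.14 and 0.33. MRPS30, MRPS18A and MRPS36 count as MRPS here, whatever the place of their proteins. By descent, taken from the number in the symbol, 24 of 34 genes with a bacterial counterpart and 15 of 31 mitochondria-specific genes lay above 0, with medians of 0.30 and -0.0044. With MRPS24 and MRPL47 placed with their bacterial relatives, a step made after the values were seen, the counts were 26 of 36 and 13 of 29 and the medians 0.32 and -0.13. Level also divided the genes: 22 of the 32 less abundant and 17 of the 33 more abundant genes lay above 0, with medians of 0.34 and 0.02. None of these splits was tested.

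**Figure D4:**
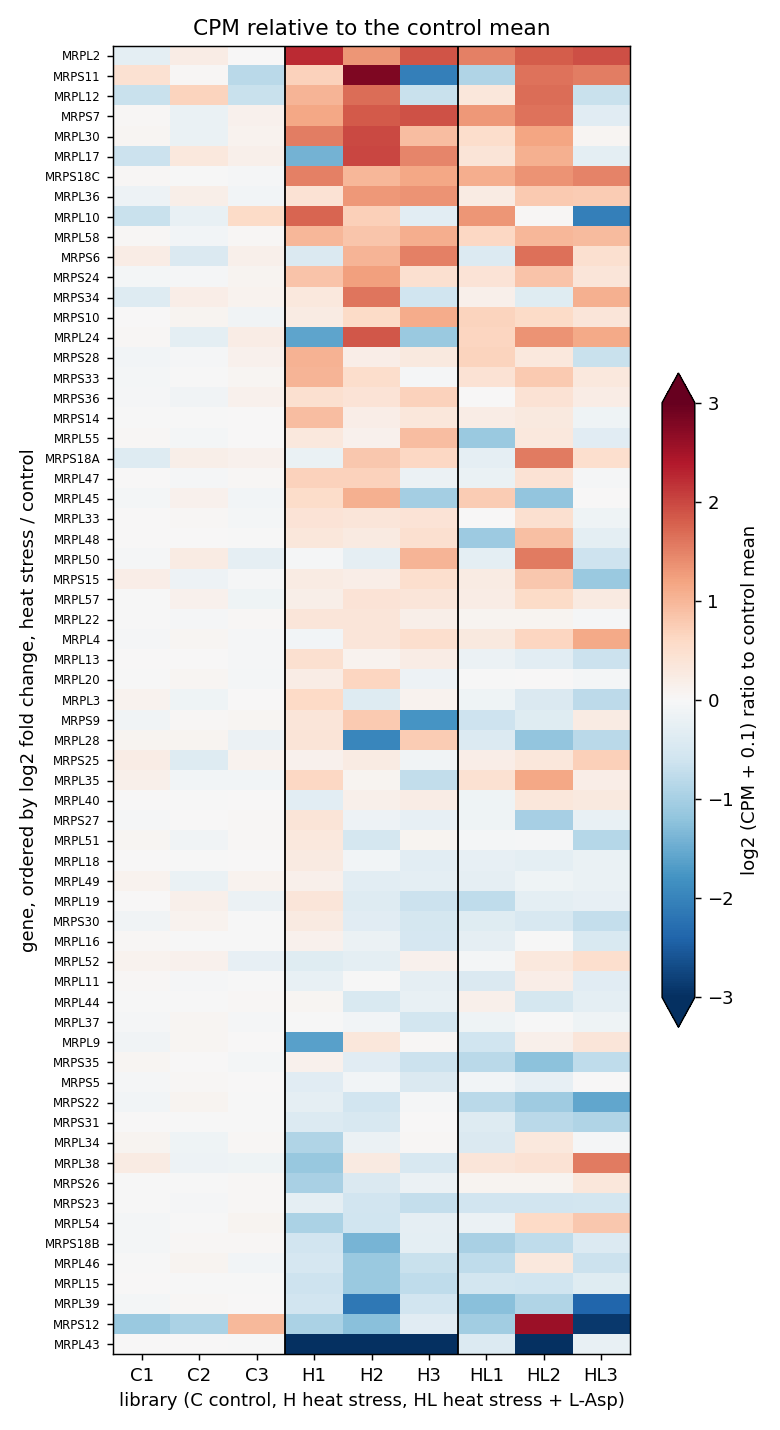
Log2 ratio of CPM + 0.1 to the control mean for all 65 genes (rows, ordered by the fitted log2 fold change of HS against control) in each library (columns), with the colour scale limited to ±3. The control columns are pale, and the heated columns show rows of either colour, from MRPL2 (1.94) and other low-count genes at the top to MRPL43 (-3.31) at the bottom.

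L-Asp given with heat, set against heat alone, also gave no called gene among the 65 (edgeR and DESeq2, adjusted p under 0.05), against 0.0% of all genes in edgeR and 0.934% of those given an adjusted p in DESeq2. At an unadjusted p under 0.05 edgeR gave 3 higher (all genes 3.52%) and 3 lower (3.1%), or 9.23% against 6.61% of all genes. For 8 genes the HS and HS_Lasp libraries did not overlap, or 12.3% against 11.9% of all genes, with 4 higher (all genes 6.31%) and 4 lower (5.54%). With L-Asp, 21 of 65 genes lay above HS, against 49.0% of all genes, and the median log2 fold change was -0.15 against -0.01 for all genes. The share without overlap lay near that of all genes.

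On the higher side with L-Asp, MRPS26 had 56.1, 81.4 and 97.8 CPM in HS and 116, 117 and 141 in HS_Lasp, against 109, 109.7 and 112 in control. MRPS26 is a mitochondria-specific protein of the small subunit. HS lay wholly below both other groups (log2 fold change of HS_Lasp from HS 0.67 ± 0.24, edgeR adjusted p = 0.738). MRPL54, given above, lay at 1.06 ± 0.41 for the same comparison (edgeR adjusted p = 0.738). MRPL38 had 4.03, 3.03 and 3.06 CPM in control, 1.48, 4.09 and 2.39 in HS and 4.36, 4.59 and 10.1 in HS_Lasp, without overlap between the heated groups. MRPL4, whose protein lines the exit tunnel, had 51.1, 54.7 and 50.6 CPM in control, 49.4, 67.3 and 74.4 in HS and 63.5, 81.6 and 115 in HS_Lasp, and MRPL35 had 14.3, 12.1 and 12.1 CPM in control, 19.6, 13.6 and 7.64 in HS and 17.6, 28.7 and 14.8 in HS_Lasp. For MRPL4 and MRPL35 the heated groups overlapped, and all HS_Lasp libraries were above control.

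On the lower side stood MRPS22, a mitochondria-specific small subunit protein mutated in some cases of primary ovarian insufficiency. It measured 65.8, 73.2 and 69.4 CPM in control, 57.5, 46.6 and 67.4 in HS and 39.95, 32.9 and 23.4 in HS_Lasp. HS_Lasp was below every other library, while HS overlapped control. Its log2 fold change was -0.83 ± 0.27 (SE) from HS (edgeR adjusted p = 0.738, unadjusted p = 0.0110) and -1.11 ± 0.36 from control (edgeR adjusted p = 1). MRPS22 shares 13785 bases with COPB2 on the other strand, which was at 250.4 to 258 CPM in control, 190.2 to 286 in HS and 251 to 322 in HS_Lasp.

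MRPS35, another mitochondria-specific small subunit protein, had 51.9, 50.4 and 48.1 CPM in control, 55.0, 39.3 and 31.9 in HS and 28.7, 21.2 and 29.6 in HS_Lasp. MRPL13, a conserved large subunit protein, had 84.2, 84.4 and 82.0 CPM in control, 116, 89.8 and 97.9 in HS and 73.3, 67.3 and 53.4 in HS_Lasp. For both genes the HS_Lasp libraries were below all control and HS libraries. The log2 fold changes from HS were -0.67 ± 0.29 and -0.65 ± 0.22 (SE), at edgeR adjusted p of 0.738 and 0.738. MRPL22, which lines the exit tunnel and is named after its values were seen, had 72.4, 71.0 and 74.1 CPM in control, 93.3, 93.7 and 82.4 in HS and 77.1, 76.8 and 70.2 in HS_Lasp, with HS above both other groups. MRPL3 had 79.7, 68.5 and 75.7 CPM in control, 113, 57.2 and 79.6 in HS and 68.4, 55.5 and 43.0 in HS_Lasp and MRPL55 had 5.97, 5.57 and 5.85 CPM in control, 7.19, 6.31 and 11.2 in HS and 2.61, 7.21 and 4.55 in HS_Lasp, and their heated groups overlapped.

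Heat with L-Asp against control, which shares its libraries with the comparisons above, again gave 0 of 65 genes by edgeR and by DESeq2, against 0.0% of all genes in edgeR and 0.386% of those given an adjusted p in DESeq2. At an unadjusted p under 0.05 edgeR gave 2 higher (all genes 1.63%) and 4 lower (1.6%), or 9.23% against 3.22% of all genes. Libraries did not overlap for 28 genes, or 43.1% against 33.8% of all genes, with 13 higher (all genes 14.2%) and 15 lower (19.6%). Above 0 lay 38 of 65 genes, against 50.5% of all genes, with a median of 0.13 against 0.01. Without HS_Lasp replicate 2 the median was -0.031.

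The genes with the smallest p in that comparison were mostly named above. MRPS18C had a log2 fold change of 1.33 ± 0.41 (SE) and MRPL58 of 0.88 ± 0.36 (edgeR unadjusted p = 0.00727 and 0.0350). MRPS35 had -0.92 and MRPL39 -1.40 (edgeR unadjusted p = 0.0370 and 0.0443). MRPS31, a mitochondria-specific protein and among the most abundant of the small subunit, had 179.9, 177 and 175 CPM in control, 133, 126 and 177 in HS and 135, 101 and 94.4 in HS_Lasp. HS_Lasp lay wholly below control, and HS overlapped both (log2 fold change of HS_Lasp from control -0.68 ± 0.31, edgeR adjusted p = 1).

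The most abundant gene by counts, MRPS14, a conserved protein of the small subunit head, had 862, 858 and 870.0 CPM in control, 1652, 998 and 1093 in HS and 1001, 1051 and 785 in HS_Lasp. All HS libraries were above control, HS library 1 most, and HS_Lasp overlapped both (log2 fold change of HS from control 0.53 ± 0.34, edgeR adjusted p = 1). MRPS14 shares 25278 bases of its locus with CACYBP on the other strand. CACYBP was at 58.0 to 64.7 CPM in control, 37.0 to 87.3 in HS and 33.1 to 54.0 in HS_Lasp. What it adds to the counts of MRPS14 was not tested. MRPL18 had 594, 584 and 597 CPM in control, 713, 561 and 476 in HS and 502, 485 and 517 in HS_Lasp, with HS_Lasp below control and HS on either side of it. MRPL33, a small conserved protein, had 114, 116 and 109 CPM in control, 149, 145 and 149 in HS and 114, 159 and 104 in HS_Lasp. Its HS libraries were close together and above control, and HS_Lasp overlapped both. MRPL16, which lies near the peptidyl transferase centre, had 192 to 200.1 CPM in control, 138 to 214 in HS and 143 to 193 in HS_Lasp, and these ranges overlapped.

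Several of the genes named by role and listed next have roles beyond a structural one. MRPS30 and MRPL24 were named with them, without such a role stated here. MRPL44, a protein with an RNase III-like fold, had 39.3 to 40.7 CPM in control, 29.1 to 41.2 in HS and 27.8 to 44.0 in HS_Lasp. MRPL45, which anchors the particle at the inner membrane, had 6.18, 7.07 and 6.08 CPM in control, 9.58, 13.5 and 3.11 in HS and 11.1, 2.81 and 6.54 in HS_Lasp. Both heated groups overlapped control for these genes. MRPS27, a pentatricopeptide repeat protein, had 27.8, 28.8 and 29.4 CPM in control, 37.8, 25.6 and 24.2 in HS and 26.1, 14.3 and 24.4 in HS_Lasp, with HS_Lasp below control. MRPS30 had 47.8, 54.8 and 51.2 CPM in control, 62.0, 40.8 and 35.6 in HS and 40.2, 36.9 and 31.3 in HS_Lasp, also with HS_Lasp below control. MRPL24 had 2.31, 1.83 and 2.66 CPM in control, 0.689, 8.44 and 0.992 in HS and 3.59, 5.88 and 5.09 in HS_Lasp, with 1 HS library far above and the other 2 below control. MRPS36, whose protein is now placed in the 2-oxoglutarate dehydrogenase complex, had 48.6, 45.7 and 54.2 CPM in control, 69.7, 66.4 and 79.9 in HS and 50.2, 67.4 and 58.1 in HS_Lasp, with HS above control. None of these genes had an unadjusted p under 0.05 in any comparison (edgeR).

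Of the remaining genes, MRPL34, MRPL37, MRPL40, MRPL49, MRPL52 and MRPS5 were among the 36 whose log2 fold change of HS from control was within 0.5 of 0. For HS_Lasp against HS 48 of the 65 were within that distance, and for HS_Lasp against control 36. MRPS23, a mitochondria-specific protein, had 61.3, 60.7 and 63.5 CPM in control, 51.0, 41.6 and 37.9 in HS and 41.4, 41.6 and 42.0 in HS_Lasp, with both heated groups below control. MRPL57 had 11.4, 12.4 and 10.4 CPM in control, 12.8, 15.2 and 14.6 in HS and 13.2, 16.9 and 13.8 in HS_Lasp, and MRPS10 had 25.6, 27.2 and 23.9 CPM in control, 30.3, 37.8 and 55.0 in HS and 40.4, 37.95 and 32.8 in HS_Lasp. For both, every heated library was above control. The median coefficient of variation over the 65 genes was 28.0% in HS and 24.0% in HS_Lasp. Over all genes tested, whose levels were typically lower, it was 41.0% and 36.1%.

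Further mitoribosome genes fall outside the symbol rule. The table describes 5 rows without a symbol as mitochondrial ribosomal proteins L14, S17, L1, L27 and L42. The S17 row was abundant, with 639, 648 and 651 CPM in control, 1040.4, 860.0 and 866 in HS and 785, 868 and 736 in HS_Lasp, so that every heated library was above control. The L14 row had 3.48, 3.78 and 4.66 CPM in control, 12.8, 9.88 and 13.1 in HS and 9.0, 18.8 and 8.22 in HS_Lasp, also with all heated libraries above control (log2 fold change of HS from control 1.58 ± 0.65, edgeR adjusted p = 1). For the L1, L27 and L42 rows both heated groups overlapped control. Of the mitoribosome proteins under other names, DAP3, PTCD3, AURKAIP1, CHCHD1 and GADD45GIP1, 2 of 5 lay above 0 for HS against control (all genes 50.1%). None of the 5 had an edgeR unadjusted p under 0.05 in that comparison, against 3.86% of all genes. CHCHD1, a small subunit protein with the smallest p of these for HS against control, had 23.3, 23.5 and 20.3 CPM in control, 33.4, 40.9 and 31.3 in HS and 35.6, 37.0 and 26.8 in HS_Lasp, with both heated groups wholly above control. DAP3, which binds GTP in the small subunit, had 5.67, 7.55 and 4.54 CPM in control, 3.99, 1.62 and 2.35 in HS and 4.76, 1.37 and 5.28 in HS_Lasp, and PTCD3 had 22.1, 21.9 and 23.2 CPM in control, 20.0, 3.90 and 11.4 in HS and 16.5, 10.99 and 21.1 in HS_Lasp. For DAP3 and PTCD3 HS was wholly below control, and the same held for AURKAIP1 (6.45 to 8.12 CPM in control, 4.34 to 6.36 in HS and 5.92 to 10.0 in HS_Lasp). GADD45GIP1 overlapped between groups.

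Genes that work on or around the mitoribosome also gave 0 calls in the edgeR fit of 7 libraries. Of 16 tested translation factors, 9 lay above 0 for HS against control (all genes 50.1%). In that comparison 1, SLIRP, had an edgeR unadjusted p under 0.05, or 6.25% against 3.86% of all genes. SLIRP, which stabilises mitochondrial mRNAs with LRPPRC, had 1.36, 1.75 and 1.39 CPM in control, 9.03, 9.16 and 12.5 in HS and 10.9, 9.66 and 10.3 in HS_Lasp. All heated libraries were far above control, at a log2 fold change of 2.76 ± 0.65 (SE) for HS (edgeR adjusted p = 0.472, DESeq2 adjusted p = 0.000101, edgeR with 9 libraries 0.00197). LRPPRC itself was at 143 to 153 CPM in control, 122 to 188 in HS and 112 to 143 in HS_Lasp. TUFM, the elongation factor that delivers tRNA, had 4.11, 4.27 and 4.54 CPM in control, 7.76, 7.54 and 14.0 in HS and 14.5, 14.5 and 15.1 in HS_Lasp, with HS above control and HS_Lasp above HS in every library (edgeR adjusted p = 1 for HS against control).

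Assembly and rRNA modification factors lay mostly on the lower side after heat. For HS against control 8 of 24 tested lay above 0 (all genes 50.1%), with a median log2 fold change of -0.30. An unadjusted p under 0.05 was reached by 0 of the 24 (edgeR), against 3.86% of all genes. C1QBP, among the more abundant, had 142, 131 and 130.1 CPM in control, 77.2, 77.2 and 115 in HS and 111, 116 and 109.6 in HS_Lasp, with both heated groups below control. FASTKD2, which binds mitochondrial rRNA, had 119.5, 110.4 and 119 CPM in control, 58.7, 68.8 and 98.2 in HS and 103, 82.0 and 98.4 in HS_Lasp, also with both heated groups below control. With L-Asp against heat alone 16 of 24 lay above 0 (all genes 49.0%). Only 1, the rRNA methyltransferase MRM2, had an edgeR unadjusted p under 0.05, or 4.17% against 6.61% of all genes. MRM2 had 55.0, 37.2 and 34.9 CPM in HS and 62.7, 64.99 and 75.6 in HS_Lasp (edgeR adjusted p = 0.738). Of 13 tested transcription and RNA processing genes, 5 lay above 0 for HS against control (all genes 50.1%). In that comparison 1, SUPV3L1, had an edgeR unadjusted p under 0.05, or 7.69% against 3.86% of all genes. SUPV3L1, the helicase of the mitochondrial degradosome, had 92.0, 84.7 and 88.3 CPM in control, 167, 145 and 136 in HS and 126, 113 and 107 in HS_Lasp. Both heated groups lay above control (edgeR unadjusted p = 0.0245 and adjusted p = 1 for HS against control, adjusted p = 0.0163 with 9 libraries).

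Transcription regulators of mitochondrial biogenesis were measured as well, in a list that also holds TFAM, which acts on mitochondrial DNA and not on these nuclear genes. NRF1, a transcription factor known to bind promoters of mitoribosomal genes, had 9.37, 12.3 and 11.3 CPM in control, 4.21, 1.40 and 1.23 in HS and 8.07, 9.20 and 7.44 in HS_Lasp. HS was wholly below control and HS_Lasp wholly above HS. The log2 fold changes were -2.27 ± 0.73 (SE) for HS against control and 1.85 ± 0.58 for HS_Lasp against HS (edgeR adjusted p = 0.825 and 0.738, and 0.0276 for the former with 9 libraries). GABPB1, a partner of the ETS factor GABPA, had 105, 104 and 101 CPM in control, 73.2, 35.97 and 57.6 in HS and 71.0, 84.4 and 64.0 in HS_Lasp, with both heated groups below control. TFAM, which packages mitochondrial DNA and is needed for its transcription, had 2.77, 2.96 and 3.41 CPM in control, 0.162, 0 and 0.253 in HS and 3.18, 0.323 and 0.166 in HS_Lasp. Its HS libraries and HS_Lasp libraries 2 and 3 were at about the 12-count level given above or below it. PPRC1, a coactivator of such factors, had 106, 103 and 94.98 CPM in control, 65.8, 95.02 and 92.0 in HS and 100.4, 128 and 194 in HS_Lasp, with HS_Lasp above HS (edgeR unadjusted p = 0.0200, adjusted p = 0.738). Of the 7 genes tested in this list, TFAM among them, 3 lay above 0 for HS against control (all genes 50.1%). At an unadjusted p under 0.05 edgeR gave 2 of the 7, NRF1 and GABPB1, on the lower side, or 28.6% against 3.86% of all genes. For HS_Lasp against HS it gave 2 of the 7, NRF1 and PPRC1, on the higher side, or 28.6% against 6.61%. GABPA itself was at 44.5 to 46.5 CPM in control, 43.7 to 60.4 in HS and 42.0 to 45.0 in HS_Lasp, which overlap.

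**Figure D5:**
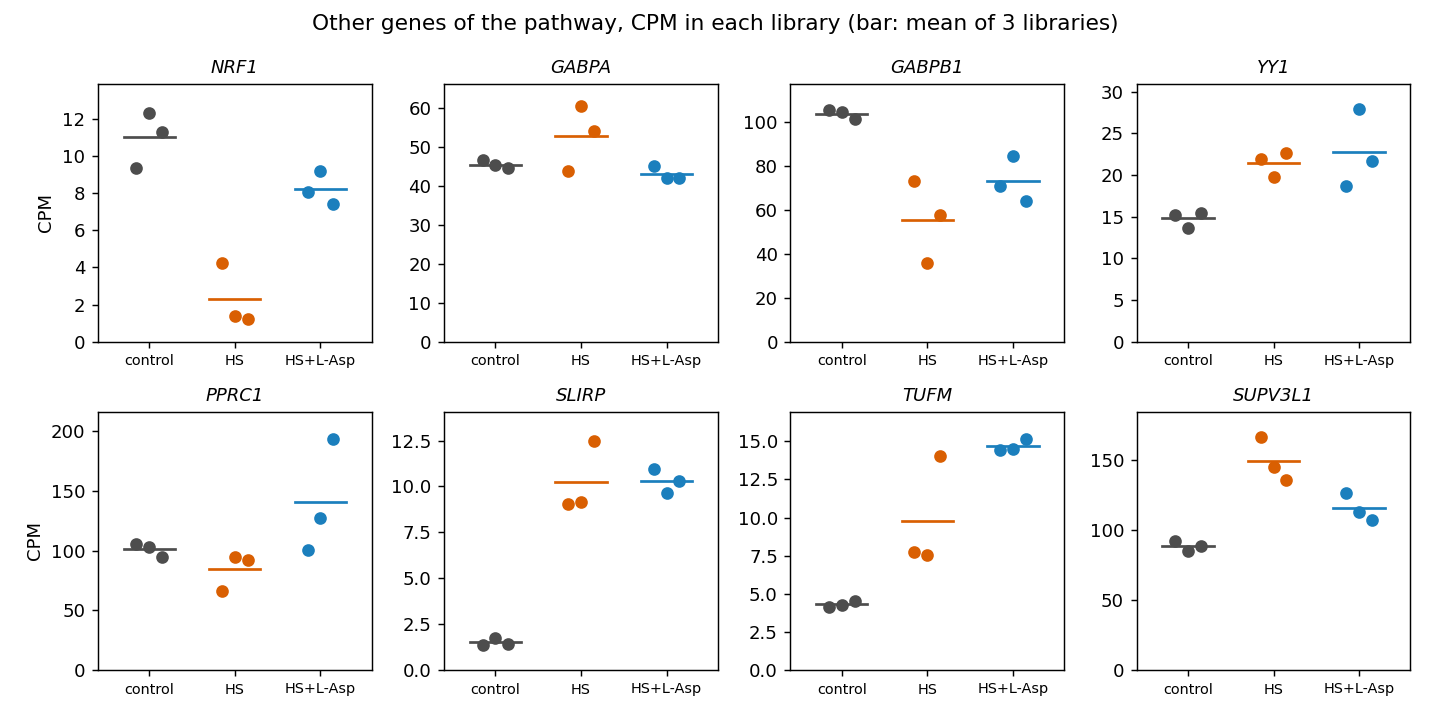
CPM in each library (points) and the mean of 3 libraries (bar) for 8 genes of the other pathway lists, each panel with its own axis from 0. NRF1 lies at 1.23 to 4.21 CPM in HS against 7.44 CPM or more in the other groups, and SLIRP lies at 9.03 CPM or more in all heated libraries against 1.75 CPM or less in control.

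Measures of other RNA moved between libraries too. All rows placed on mitochondrial DNA, the 13 protein-coding genes among them, took 10.0 to 10.1% of counts in control. Their share was 3.09, 5.18 and 14.5% in HS and 5.30, 9.47 and 9.29% in HS_Lasp. In the same order of libraries the medians of the 65 genes, given above, were 0.25, 0.20 and -0.04 in HS and -0.12, 0.31 and -0.14 in HS_Lasp. Of 28 cumulus and granulosa markers, genes of the somatic cells that feed the oocyte, 21 were in the table and 16 were tested. Of the 16, 12 lay above 0 for HS against control (all genes 50.1%), with a median log2 fold change of 1.43. For HS_Lasp against control 11 lay above 0 (all genes 50.5%), with a median of 0.48. At an unadjusted p under 0.05 edgeR gave 4 of the 16 for HS against control, all higher, or 25.0%, against 3.86% of all genes. For HS_Lasp against control it gave 5 of the 16, all higher, or 31.25% against 3.22%. The 21 markers in the table summed to 1170 to 1205 CPM in control, 1223 to 1595 in HS and 1195 to 1243 in HS_Lasp. AMH, GATA6, INHBA, LHCGR and PTX3 were at 0 in control, AMH, LHCGR, NR5A1 and PTX3 in HS, and NR5A2 and PTX3 in HS_Lasp. Oocyte markers had lower summed levels in both heated groups, as given above. Of the 16 oocyte markers tested, edgeR gave 5 at an unadjusted p under 0.05 for HS against control, 1 higher and 4 lower. That was 31.25% against 3.86% of all genes. For HS_Lasp against control edgeR gave 6 of the 16 oocyte markers, 3 higher and 3 lower, or 37.5% against 3.22% of all genes. The part of these differences in the values of the 65 genes was not tested.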

How the data were processed

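Polyadenylated RNA was measured in 9 libraries (3 groups of 3). 1 table of the series was used. The deposited counts per gene, whole numbers, were used as given, and the deposited FPKM values served to order genes by level per length. Per the submitters' processing notes, the authors used StringTie 2.1.6, HISAT2 2.2.1 and cutadapt 1.9, and also edgeR and DESeq2, without stated roles. Genome build, counting method and treatment of reads with several matches: not given in the sources used here. Per the labels' protocols, cDNA was amplified by PCR, with no mark of strand and no molecular identifiers described, so limits cover counting error only. The table holds 6 further per-sample columns, not used here.

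The rounded mean of the control libraries was 1 library, giving 7 libraries with 4 residual degrees of freedom. filterByExpr on the 9 libraries kept 15012 genes, all 65 mitoribosomal genes among them. Library sizes were normalised by TMM (trimmed mean of M values), and the test was that of edgeR 4.0.16 (R 4.3.3, glmQLFit with robust = TRUE, glmQLFTest, 1 mean per group), with Benjamini-Hochberg adjustment over all genes and a threshold of 0.05. CPM are counts scaled by these library sizes. The standard error of a log2 fold change was its size divided by the square root of F. Ratios for single libraries used CPM + 0.1. The script was tested on simulated data. P-values measure the spread between these libraries, which may be technical. Alternatives were DESeq2 1.42.0, limma 3.58.1 on log2(FPKM + 0.1) and log2(FPKM + 1), other scalings and filters, all 9 libraries, a replicate block and leaving out each library.

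The genes, lists and tests were chosen with earlier results of these data known. Genes named are, per comparison, the 6 highest and 6 lowest log2 fold changes among those with a mean of at least 5 CPM, the 8 highest and 5 lowest by FPKM in control, genes of special role, genes without overlap between HS and HS_Lasp (up to 6 by smallest p), and the 2 of smallest p for HS against control in each pathway list. Others were named after their values were seen, among them MRPL2, MRPL22, MRPL57, MRPS10, MRPS23, LRPPRC, GABPA, DAP3, AURKAIP1, GADD45GIP1, MRM2, PPRC1 and the rows without a symbol.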

Additional observations from a re-analysis of the deposited data

How the results depend on the processing

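The number of genes called depended on the tool and on how the control was counted. For HS against control, HS_Lasp against HS and HS_Lasp against control, edgeR on 7 libraries called 0 genes each, and DESeq2 called 183, 179 and 64. With no filter on low counts edgeR called 9, 2 and 3, and with the filter recomputed on 7 libraries 2 for HS_Lasp against HS. With all 9 libraries as replicates it called 433, 2 and 269 genes, among them 6, 0 and 3 of the 65 mitoribosomal genes. With 9 libraries and a replicate block it called 378 and 223 genes against control, among them 5 and 2 of the 65. Same-numbered HS and HS_Lasp libraries did not deviate together (correlations 0.05, -0.02 and 0.01), and the main fit used no pairing. Such low correlations cannot exclude that same-numbered libraries share an origin. Leaving out 1 library gave 0 to 1, 0 to 3 and 0 to 1 genes, and 0 to 1, 0 to 1 and 0 to 0 of the 65. The 1 gene of the 65 called there was MRPL43, without HS_Lasp replicate 2. The median log2 fold change of the 65 genes ran from 0.042 (without HS replicate 2) to 0.24 for HS against control, from -0.25 (without HS_Lasp replicate 2) to -0.060 for HS_Lasp against HS, and from -0.031 (without HS_Lasp replicate 2) to 0.16 for HS_Lasp against control. Under every other scaling, filter, unit and the fits of 9 libraries the 3 medians kept their sign, and no single gene given a fold change changed direction. The cause of these shifts was not tested. Genes near 12 counts, such as MRPL12, MRPS11 and MRPS12, had too few counts for a difference to be read.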
